A study of Mus musculus with 3 samples.

Results

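Kit, the receptor tyrosine kinase cKit, and Kitl, its ligand (Kit ligand, also called stem cell factor), were followed through single-cell libraries of mouse heart. They are 2 of the 17126 genes listed over the 3 libraries, were taken by symbol, and were both present in every library. The cells were the interstitial cells of the heart, freed by mincing and collagenase II digestion, rid of most cardiomyocytes by a slow spin, and sorted by flow cytometry on Lin28 and cKit at the cell surface. The groups were Lin28+/cKit+ cells (1176 cells), Lin28+/cKit- cells (681 cells) and Lin28-/cKit- cells (3976 cells), with 1 droplet-based 3' library each. No treatment or genotype is named for any group, and the sources used here give neither the strain nor the number, age or sex of the mice.

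Kitl is made as a transmembrane protein and acts either on the surface of the cell that makes it or, after proteolytic cleavage, as a soluble factor. Its binding pairs cKit molecules, which then phosphorylate each other and pass the signal to phosphoinositide 3-kinase, Src family kinases, phospholipase C gamma, Ras and STAT proteins. The pair is known for the upkeep of blood stem cells, mast cells, melanocytes, germ cells and the pacemaker cells of the gut. In bone marrow, endothelium and perivascular cells are the known sources of Kitl. In the heart, cKit has been used as a surface mark of rare interstitial cells and is also carried by endothelial cells and mast cells.

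Kit lies on the plus strand at chr5:75574916-75656722 and Kitl on the plus strand at chr10:100015630-100100416 of GRCm38 in the GENCODE vM21 annotation, and no other annotated gene overlaps either. Kit has 8 annotated transcripts, of which 2 are protein coding, and Kitl has 6, of which 4 are protein coding. The longest of them, Kit-204 and Kitl-202, have 21 exons in 5241 bases and 10 exons in 5648 bases. A count here is 1 sum per gene, so it does not separate the forms that matter most for this ligand and receptor. Those forms are shown by the stretches in which they differ. Exon 6 of Kitl, at chr10:100080857-100080940 on the plus strand, has 84 bases, keeps the reading frame, and codes for the stretch that holds the main cleavage site for release of the soluble factor. It is in Kitl-202 and skipped in Kitl-201.
Kitl exon 6: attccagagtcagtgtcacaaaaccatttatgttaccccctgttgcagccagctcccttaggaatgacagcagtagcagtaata
The end of exon 9 of Kit, at chr5:75639129-75639158 on the plus strand, carries 12 bases (in capitals) that are in Kit-201 and missing from Kit-204, and that code for the 4 residues by which the long and short receptor forms differ next to the membrane.
Kit insert: ttaactttgcatttaaagGTAACAACAAAG

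The stretches before both transcription starts are shown because factors known to act on these genes are described further on. They are the 250 bases before the RefSeq start on GRCm38.p6, plus strand, at chr5:75574737-75574986 for Kit and chr10:100015571-100015820 for Kitl. The GENCODE genes start earlier, at chr5:75574916 and chr10:100015630, so the last part of each window lies inside the GENCODE gene. All Kitl matches given below lie after the GENCODE start, and the Kit match lies before it. Distances are from the RefSeq start. RefSeq lists 2 starts for Kit, and the first was used. Capitals mark matches, on either strand, of the letters searched, which were GATAA, the ETS core CCGGAA, the E-box CAGCTG, the GC box GGGCGG and the TATA box TATAAA.
Kit promoter: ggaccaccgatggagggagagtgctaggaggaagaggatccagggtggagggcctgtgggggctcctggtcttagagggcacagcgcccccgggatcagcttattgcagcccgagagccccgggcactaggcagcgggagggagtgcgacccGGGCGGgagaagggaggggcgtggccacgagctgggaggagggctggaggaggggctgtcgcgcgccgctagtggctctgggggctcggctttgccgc
Kitl promoter: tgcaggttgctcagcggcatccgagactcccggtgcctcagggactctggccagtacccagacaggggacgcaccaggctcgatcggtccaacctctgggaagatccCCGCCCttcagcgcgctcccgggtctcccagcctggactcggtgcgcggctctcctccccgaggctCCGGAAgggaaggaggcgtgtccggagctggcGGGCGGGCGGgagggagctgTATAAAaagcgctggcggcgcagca
The Kit window held 1 GC box, 98 bases before the start, and 0 matches of the other 4 motifs. The Kitl window held a TATA box 25 bases before the start, an ETS core at 77 bases, and GC boxes at 143 bases (minus strand), 45 bases and 41 bases, of which the last 2 overlap each other. Of 32851 RefSeq promoter windows of this length, 32.7% held a GC box, 12.4% a TATA box, 12.03% the ETS core, 13.0% the E-box and 22.6% GATAA. These matches describe letters in a window and show neither binding nor its absence.

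The Lin28+/cKit+, Lin28+/cKit- and Lin28-/cKit- libraries held 10400648, 7401174 and 34031955 UMIs (unique molecular identifiers, tags that let each captured transcript be counted once), with medians of 8068.5, 9628 and 8630 per cell. Cells were clustered with Kit and Kitl left out, and a cluster was given a class name with the ending "-like" only from lists of marker genes. In the same library order there were 429, 242 and 922 endothelial-like cells, 592, 267 and 14 macrophage-like cells, 10, 33 and 2760 fibroblast-like cells, and 131, 112 and 241 cells left unnamed. Lymphatic-like cells (49) and B cell-like cells (31) were few. Fibroblast-like cells could therefore be compared with endothelial-like cells in the Lin28-/cKit- library only, and macrophage-like cells in the Lin28+ libraries only. Each group is a single library, so no test could be made. Levels are in CPM, the UMIs of the gene as a share of all UMIs of the cells summed and scaled as is usual for counts, ratios are of CPM, and every interval is a 95% interval of counting error only. A ratio is called higher or lower where it is at least 1.5 in either direction and its interval does not include 1.

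Kit was a rare transcript. There were 73 Kit UMIs in the Lin28+/cKit+ library, 55 in the Lin28+/cKit- library and 114 in the Lin28-/cKit- library, and the 242 UMIs lay in 177 of 5833 cells. Endothelial-like cells, 27.3% of all cells, held 71.5% of these UMIs. In endothelial-like cells Kit stood at 18.3 CPM (13.5 to 24.2) in the Lin28+/cKit+ library, 24.8 CPM (18.4 to 32.8) in the Lin28+/cKit- library and 17.9 CPM (14.1 to 22.5) in the Lin28-/cKit- library. Macrophage-like cells had 1 Kit UMI in 592 cells of the Lin28+/cKit+ library (0.148 CPM) and 3 in 267 cells of the Lin28+/cKit- library (0.678 CPM). Fibroblast-like cells of the Lin28-/cKit- library had 16 Kit UMIs in 13 of 2760 cells (0.570 CPM). Each of these endothelial-like levels was above each of the macrophage-like and fibroblast-like ones, with intervals that did not overlap.

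Kitl was far better captured. It gave 2164 UMIs in the Lin28+/cKit+ library, 1736 in the Lin28+/cKit- library and 3501 in the Lin28-/cKit- library, and endothelial-like cells held 85.0%, 85.1% and 81.2% of them. Its level in endothelial-like cells was 688 CPM (657 to 720) in the Lin28+/cKit+ library, 749 CPM (711 to 788) in the Lin28+/cKit- library and 680 CPM (655 to 706) in the Lin28-/cKit- library. In macrophage-like cells it was 31.4 CPM in the Lin28+/cKit+ library and 37.8 CPM in the Lin28+/cKit- library, and in fibroblast-like cells of the Lin28-/cKit- library 13.2 CPM. The receptor and its ligand were thus both most abundant in the same broad class of cells, among the classes compared.

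Set against fibroblast-like cells within the Lin28-/cKit- library, endothelial-like cells were 31.5 times higher in Kit (18.2 to 57.9) and 51.5 times higher in Kitl (46.2 to 57.5). Both members were called higher in that comparison, as were 24.3% of the 12772 genes measured there. Against macrophage-like cells, Kit was 124 times higher in the Lin28+/cKit+ library (21.3 to 5002) and 36.6 times higher in the Lin28+/cKit- library (11.8 to 184), where the width of the intervals comes from the 1 and 3 UMIs in macrophage-like cells. The first of these ratios was 16.5 (7.77 to 40.3) with finer clusters and 24.2 (10.4 to 68.7) with each cell placed by its own markers. The finer clusters count as macrophage-like a cluster of 30 cells led by cell division genes. In the main clustering the cluster with those leading genes, cluster 19, was left unnamed. Kitl was 21.9 times higher (19.0 to 25.3) and 19.8 times higher (16.9 to 23.4) in the same libraries. Both members were called in both libraries, against a background of 38.5% of 10884 genes in the Lin28+/cKit+ library and 34.7% of 10359 in the Lin28+/cKit- library. When each cell was given the class of its own markers without clustering, the ratio to fibroblast-like cells was 15.8 for Kit and 36.9 for Kitl.

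**Figure D1:**
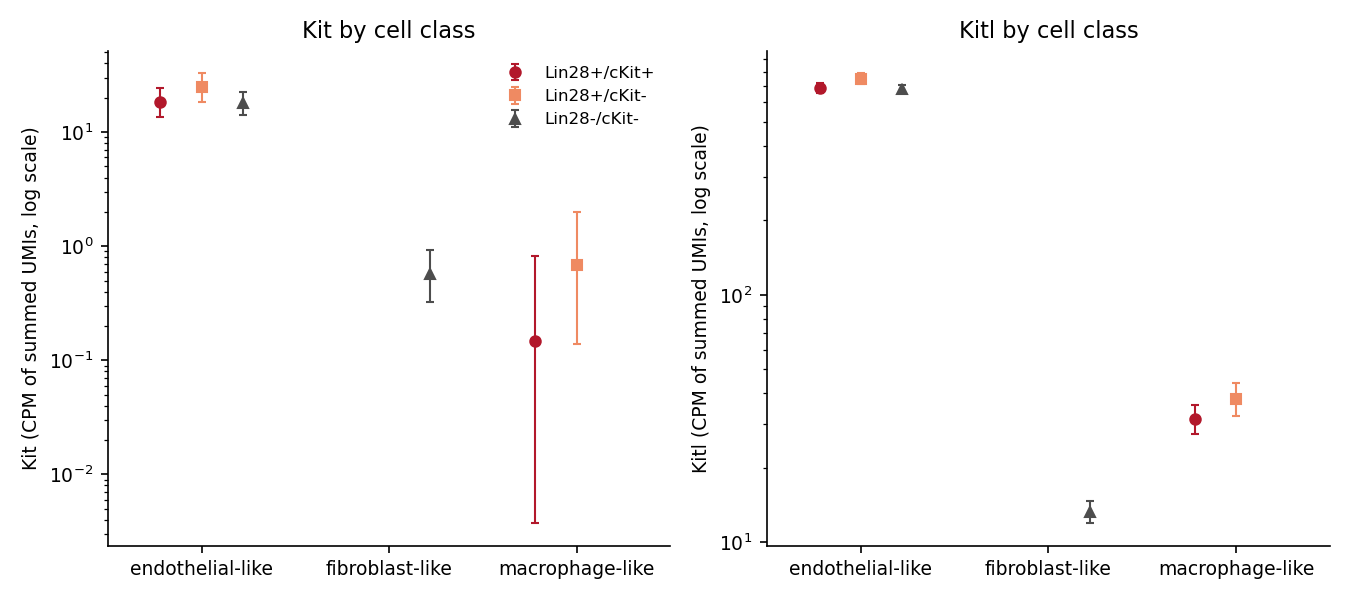
Levels of Kit (left) and Kitl (right) in CPM on a log axis, by cell class with at least 50 cells and by library, with 95% counting intervals. Endothelial-like cells stand at 17.9 to 24.8 CPM for Kit and 680 to 749 CPM for Kitl, above fibroblast-like and macrophage-like cells of the same libraries.

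Per cell, a Kit UMI was the exception and a Kitl UMI the rule in endothelial-like cells. A Kit UMI was found in 39 of 429 cells (9.09%) of the Lin28+/cKit+ library, 35 of 242 (14.5%) of the Lin28+/cKit- library and 57 of 922 (6.18%) of the Lin28-/cKit- library. Median depths differed between these groups, at 5590, 7694.5 and 4066.5 UMIs per cell, and with every cell thinned to 1000 UMIs the shares were 1.89%, 2.10% and 2.41% in that order. By comparison, 13 of 2760 fibroblast-like cells (0.471%) had a Kit UMI at a deeper median of 10142.5 UMIs. So did 3 of 873 macrophage-like cells (0.344%) at 10784 UMIs. Whether these UMIs come from free RNA, released by other cells, was not tested. Among the 131 endothelial-like cells with Kit, 102 had a single UMI, 18 had 2 and 11 had 3 or more, with 4 as the highest.

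For Kitl, 86.0% of endothelial-like cells of the Lin28+/cKit+ library, 93.4% of the Lin28+/cKit- library and 82.0% of the Lin28-/cKit- library had at least 1 UMI. After thinning these shares were 46.1%, 45.8% and 45.1%, close together in all 3 libraries. The most in a single cell was 29 UMIs. In fibroblast-like cells of the Lin28-/cKit- library, 10.7% had a Kitl UMI before thinning and 1.29% after it.

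The low counts outside the endothelium were set against endothelial transcripts found in the same cells. Per 100 UMIs of 10 endothelial markers (Pecam1, Cdh5, Kdr, Flt1, Tie1, Tek, Egfl7, Esam, Emcn and Ptprb), endothelial-like cells had 9.31 Kitl UMIs (8.97 to 9.66) in the Lin28-/cKit- library, and fibroblast-like cells of that library had 8.76 (7.89 to 9.69). The intervals overlapped, and a difference between the classes in this ratio was not detectable. The intervals for Kit overlapped too, at 0.246 (0.193 to 0.308) in endothelial-like and 0.378 (0.216 to 0.613) in fibroblast-like cells. Fibroblast-like cells of that library without an endothelial marker UMI had 76 Kitl UMIs in 60 of 790 cells (11.5 CPM, 9.05 to 14.4), against 13.8 CPM (12.2 to 15.4) in those with one. Of the 16 Kit UMIs of all fibroblast-like cells of that library, 10 lay in 7 cells of cluster 2 (1.40 CPM, 0.670 to 2.57). The part of free RNA in these counts was not tested.

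Macrophage-like cells differed in that measure. Endothelial-like cells had 9.78 Kitl UMIs per 100 endothelial marker UMIs (9.34 to 10.2) in the Lin28+/cKit+ library, against 22.9 (19.9 to 26.2) in macrophage-like cells. In the Lin28+/cKit- library endothelial-like cells had 10.3 (9.76 to 10.8), against 32.3 (27.6 to 37.6) in macrophage-like cells. Macrophage-like cells without an endothelial marker UMI had 62 Kitl UMIs in 51 of 245 cells of the Lin28+/cKit+ library (25.01 CPM, 19.2 to 32.1). In the Lin28+/cKit- library they had 72 in 43 of 149 cells (32.3 CPM, 25.3 to 40.7). The most in one such cell was 3 and 4 Kitl UMIs in library order. Macrophage-like cells with an endothelial marker UMI had 35.1 CPM (29.7 to 41.2) and 43.3 CPM (35.0 to 52.9), with overlapping intervals. Endothelial marker UMIs were few in macrophage-like cells, with 930 in 592 cells and 517 in 267 cells. The split can therefore not set free RNA apart, and the part of free RNA in this Kitl was not tested. Doublets were not removed, and when the 5% of cells scored most like doublets were left out, the endothelial over macrophage ratio of Kitl in the Lin28+/cKit+ library was 26.5 in place of 21.9. Cells of other clusters that mixed endothelial with other markers also carried Kitl. They were cluster 15, led by pericyte genes, at 426 CPM and 14.6 UMIs per 100 (12.4 to 16.97), cluster 11, with endothelial and fibroblast markers and few UMIs per cell, at 295 CPM and 10.5 per 100, and cluster 17, led by cardiomyocyte genes, at 257 CPM and 10.4 per 100.

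Within the endothelium, Kit was concentrated in 1 subtype. The endothelial-like cells fell into 4 clusters that were described by subtype markers as capillary (800 cells, with Car4, Timp4 and Gpihbp1 among the leading genes), arterial (427 cells, Sema3g, Hey1 and Gja4), a type marked by Lrg1 and Col13a1 (218 cells) and endocardial (148 cells, Npr3, Nrg1 and Cytl1). Kit stood in capillary cells at 28.5 CPM (43 UMIs in 252 cells) in the Lin28+/cKit+ library, 37.1 CPM (47 UMIs in 155 cells) in the Lin28+/cKit- library and 40.3 CPM (64 UMIs in 393 cells) in the Lin28-/cKit- library. In arterial cells it was 1.72 CPM (1 UMI), 0 CPM (0 UMIs in 30 cells) and 2.79 CPM (3 UMIs) in the same order. Capillary cells held 154 of the 173 endothelial Kit UMIs, and they were above arterial cells in each library.

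With the libraries as strata, capillary cells were 17.4 times higher in Kit than arterial cells (6.25 to 48.7), 6.34 times higher than Lrg1 Col13a1 type cells (3.11 to 12.9) and 6.01 times higher than endocardial cells (2.89 to 12.5). The capillary over endocardial interval included 1 in the Lin28+/cKit+ library (0.907 to 14.3) and the Lin28+/cKit- library (0.514 to 121). That interval lay above 1 in the Lin28-/cKit- library only, where the ratio was 11.5 (3.77 to 57.4). In the sums over 3 libraries Kit was called higher in capillary than arterial cells, as were 6.46% of 10029 genes, while 6.29% were called lower. The other 3 subtypes could not be ordered for Kit. Their pairs gave 1.11 for Lrg1 Col13a1 type over endocardial cells (0.424 to 2.90), 0.311 for arterial over Lrg1 Col13a1 type cells (0.0906 to 1.07) and 0.384 for arterial over endocardial cells (0.119 to 1.24). The counts behind these were 4 UMIs in arterial, 8 in Lrg1 Col13a1 type and 7 in endocardial cells, and 3 of the last came from 1 cell of the Lin28-/cKit- library. Without the cell richest in Kit of each class and library, the capillary over endocardial ratio was 17.7, and with each cell placed by its own markers it was 2.49. The same placing gave 5.11 (2.45 to 10.7) for the capillary over arterial ratio.

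Kitl had another order. In capillary cells it stood at 736 CPM in the Lin28+/cKit+ library, 781 CPM in the Lin28+/cKit- library and 795 CPM in the Lin28-/cKit- library, and in arterial cells at 949, 924 and 1025 CPM in the same order. Lrg1 Col13a1 type cells had 573, 704 and 600 CPM, and endocardial cells 43.5, 86.4 and 96.7 CPM. By these levels arterial cells were highest and endocardial cells lowest in all 3 libraries.

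**Figure D2:**
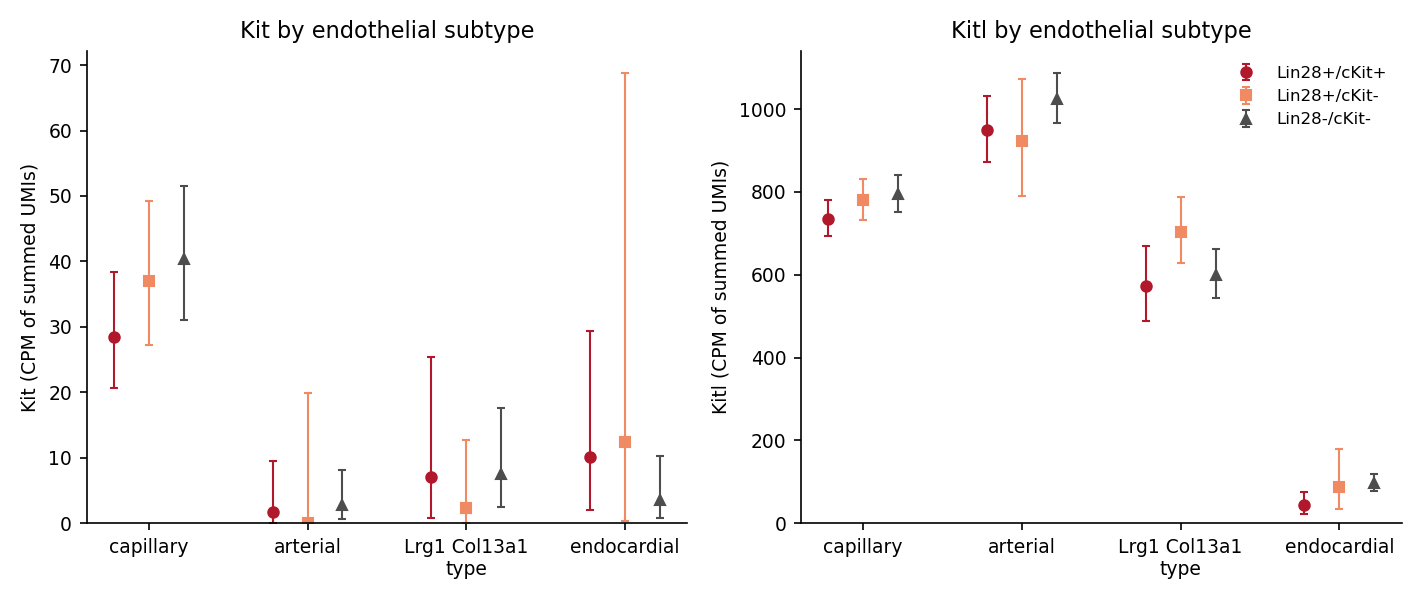
Levels of Kit (left) and Kitl (right) in the 4 endothelial subtypes by library, in CPM with 95% counting intervals. Kit stands at 28.5 to 40.3 CPM in capillary cells and at 12.3 CPM or less in the others, and Kitl at 924 to 1025 CPM in arterial cells against 43.5 to 96.7 CPM in endocardial cells.

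Capillary cells had 0.784 times the Kitl of arterial cells (0.739 to 0.832), 1.24 times that of Lrg1 Col13a1 type cells (1.15 to 1.34) and 9.62 times that of endocardial cells (7.86 to 11.8). The ratio of arterial to endocardial cells was 12.2 (10.00 to 14.9). These ratios have the libraries as strata. Neighbours in the order therefore differed beyond counting error over the strata, though capillary against arterial and against Lrg1 Col13a1 type cells by less than 1.5 times. Within the Lin28+/cKit- library, with 30 arterial cells, both of these intervals included 1. There capillary over arterial cells was 0.846 (0.718 to 1.0005) and capillary over Lrg1 Col13a1 type cells 1.11 (0.975 to 1.26). With each cell placed by its own markers, the capillary over Lrg1 Col13a1 type ratio was 2.10 (1.78 to 2.47). Lymphatic-like cells, a separate class of vessel cells, had 4 Kitl UMIs in 49 cells (13.0 CPM, 3.53 to 33.2) and 2 Kit UMIs. Per 100 endothelial marker UMIs, arterial cells had 12.1 Kitl UMIs, against 1.5 in endocardial and 0.433 in lymphatic-like cells.

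Finer clustering, again without use of Kit or Kitl, gave several clusters described as capillary, and 1 of them held most of their Kit UMIs. This cluster of 236 cells was led, among genes with the largest ratio to the other capillary cells, by Apln, which encodes the peptide apelin of growing vessels, Pgf, a ligand of the VEGF receptor Flt1, Ift122, and Adm, which encodes the vasoactive peptide adrenomedullin. Its Kit level was 69.1 CPM (31 UMIs in 68 cells) in the Lin28+/cKit+ library, 63.5 CPM (21 UMIs in 37 cells) in the Lin28+/cKit- library and 72.4 CPM (42 UMIs in 131 cells) in the Lin28-/cKit- library. The interval of each of these levels included the other 2 levels. The cluster led by Alpl, Tbx3 and Sox17 (313 cells) had 8.5, 28.6 and 10.5 CPM in the same order, the one led by Timp4 (196 cells) 15.6, 0 and 32.2 CPM, and one with cardiomyocyte transcripts such as Ttn and Tnni3 (120 cells) 18.5, 23.5 and 10.0 CPM. In the Lin28+/cKit- library the Kit interval of the Apln cluster (39.3 to 97.1) overlapped that of each other capillary cluster. The Timp4 interval overlapped that of the Apln cluster in every library. Not all cells of these clusters were capillary in the main clustering. The shares that were, in the order named, are 97.0% (Apln), 86.9% (Alpl), 100% (Timp4) and 75.8% (Ttn). Sox17 and Stmn2, both among the leading genes of the Alpl cluster, are on the arterial marker list. The name capillary was given where no other subtype list stood out and at least 60% of capillary markers reached 25% of the top endothelial cluster's level. Against the mean of the other endothelial clusters, the median log2 ratio of the capillary markers was -0.12 in the Apln cluster. It was 0.41 in the Alpl, 0.83 in the Timp4 and 0.32 in the Ttn cluster.

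The same clusters ranked otherwise for Kitl. The Apln cluster had 513 CPM in the Lin28+/cKit+ library, 693 CPM in the Lin28+/cKit- library and 729 CPM in the Lin28-/cKit- library, and the Alpl cluster had 942, 849 and 967 CPM in the same order. The Alpl cluster was above the Apln cluster in each library. In the Lin28+/cKit- library their intervals overlapped (784 to 918 and 606 to 788). The Timp4 cluster had 584, 1017 and 726 CPM, the second of them from 12 cells.

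**Figure D3:**
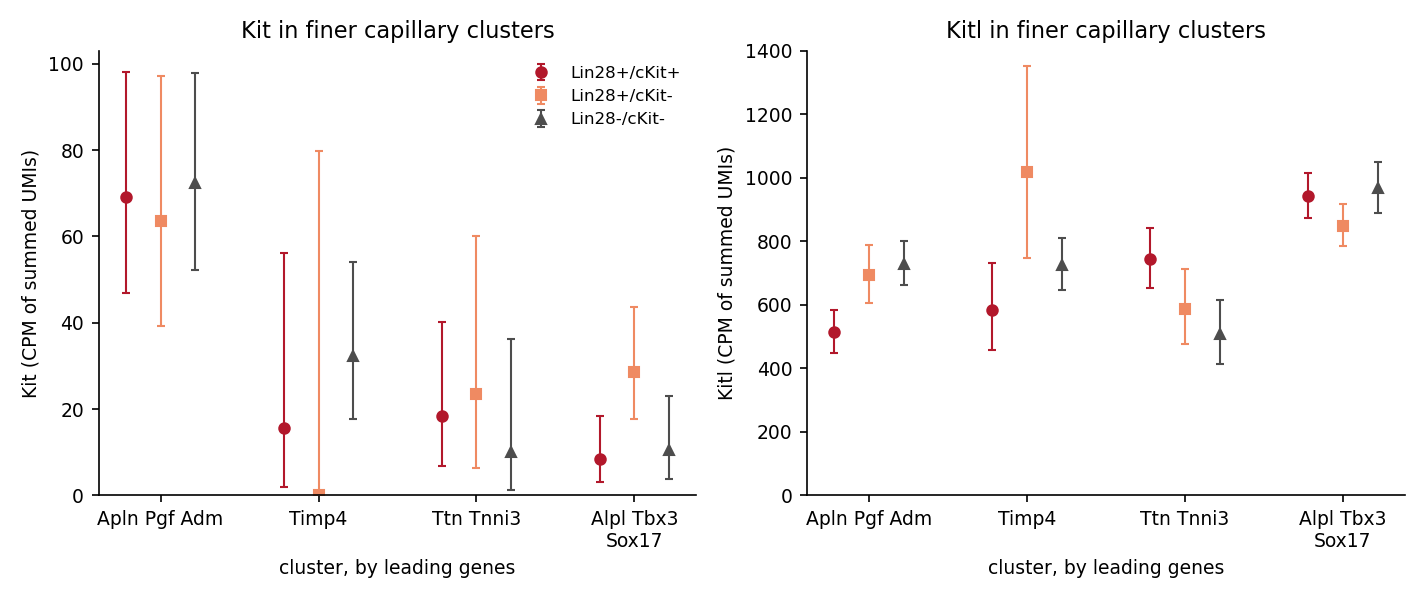
Kit (left) and Kitl (right) in CPM with 95% counting intervals in the 4 finer clusters described as capillary, by library. The Apln cluster stands at 63.5 to 72.4 CPM for Kit, above the levels of the other 3 clusters, and below the level of the Alpl cluster for Kitl. Some of these intervals overlap, among them all of those in the Lin28+/cKit- library.

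Receptor and ligand were found in the same cells. Of the 131 endothelial-like cells with a Kit UMI, 112 (85.5%) also had a Kitl UMI, against 84.7% of the endothelial-like cells without Kit. Cells with a Kit UMI were deeper, with a median of 6002 UMIs against 4646. Among capillary cells, those with a Kit UMI had 503 CPM of Kitl against 777 CPM in those without in the Lin28+/cKit+ library (ratio 0.648, 0.530 to 0.786). In the Lin28+/cKit- library they had 819 against 767 CPM (1.07, 0.925 to 1.23), and in the Lin28-/cKit- library 636 against 824 CPM (0.771, 0.648 to 0.913). The ratio thus lay below 1 in 2 of 3 libraries. In the other it was above 1, with an interval that included 1. The 5 endocardial cells with a Kit UMI had 0 Kitl UMIs.

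To see which genes went with Kit in single cells, UMIs in the 131 endothelial-like cells with a Kit UMI (39, 35 and 57 by library) were divided by those expected from cells without one in the same library and cluster. Of 5906 genes with enough counts, 3.15% (186) had a pooled ratio of at least 1.5 and a ratio above 1 in all 3 libraries, and 3.64% (215) were as far below. These cells share their libraries and were picked by single UMIs, so the ratios carry no test. Pgf was highest at 8.97, with 9.09 in the Lin28+/cKit+ library, 65.2 in the Lin28+/cKit- library and 5.33 in the Lin28-/cKit- library. The 65.2 is 25 UMIs over only 0.383 expected. Pgf was seen in 16 of the 131 cells, and 20 of its 75 UMIs came from 1 cell. Adm followed at 4.13 (4.50, 2.63 and 5.21) and Apln at 3.78 (4.88, 5.19 and 1.99). Both were seen in more cells, 49 of the 131 for Adm and 32 for Apln. The next were Bmp4 at 2.81, with 24 of 50 UMIs in 1 cell, Mest at 2.72, Lxn at 2.43, Fscn1, an actin-bundling protein of cell protrusions, at 2.12 and Fxyd6 at 2.08. Pgf, Adm, Apln and Mest are among the genes that led the finer cluster described above, which was not used for the matching.

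At the other end stood Slc6a6, the taurine transporter, at 0.473, Cytl1 at 0.5004, Slc26a10 at 0.504 and Timp4, an inhibitor of matrix metalloproteinases, at 0.515. Of the 51 Cytl1 UMIs 21 came from 1 cell, and only 6 of the cells with a Kit UMI had any. Cytl1 is an endocardial marker here, at 1806 CPM in endocardial against 4.12 CPM in capillary cells. Kitl itself was at 0.881, with 0.698 in the Lin28+/cKit+ library, 1.07 in the Lin28+/cKit- library and 0.826 in the Lin28-/cKit- library. The VEGF receptors were close to or under 1, Kdr at 0.863 (0.862, 0.861 and 0.865) and Flt1 at 0.719 (0.677, 0.802 and 0.647). When capillary cells alone were used, Pgf was at 9.16, Adm at 4.42 and Apln at 3.82, and Bmp4 and Cytl1 had too few UMIs to be measured.

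**Figure D4:**
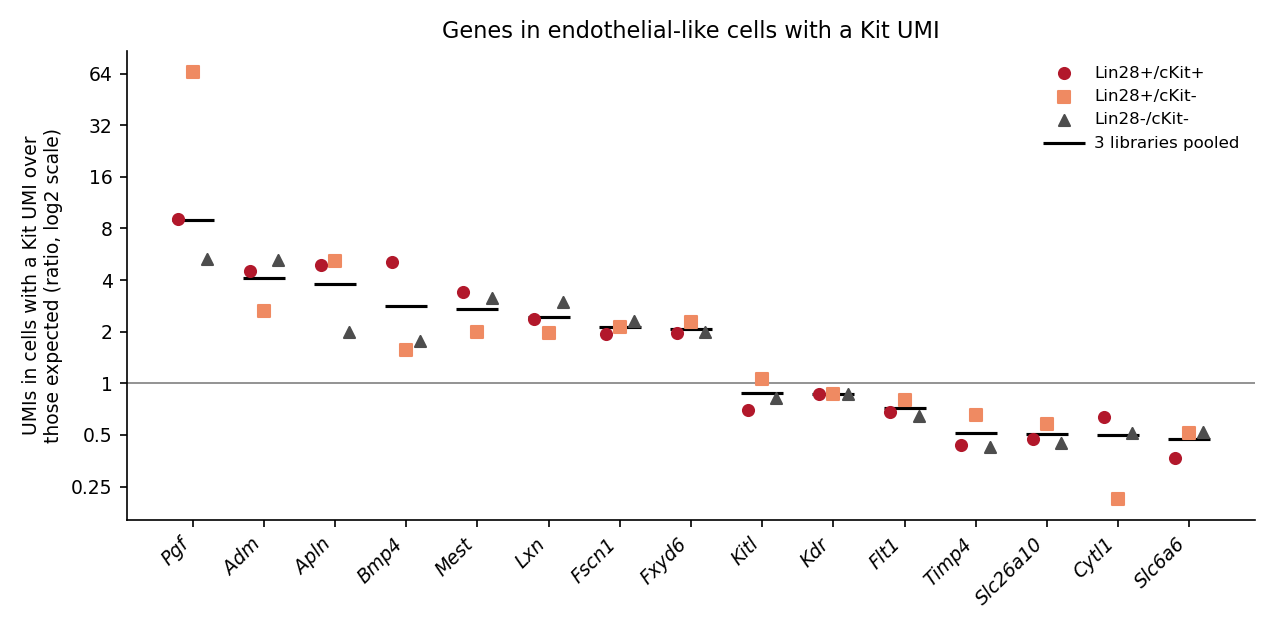
Observed over expected UMIs (log2 axis) in endothelial-like cells with a Kit UMI, with the pooled ratio and the ratio in each library. Shown are the 8 highest genes, the 4 lowest, and Kitl, Kdr and Flt1. Pgf, Adm and Apln lie at 8.97, 4.13 and 3.78, Slc6a6 and Timp4 at 0.473 and 0.515, and Kitl at 0.881.

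Across cell types, the genes closest to each member were sought by Pearson correlation of log2(CPM + 1) over 29 units of 1 cluster in 1 library with at least 20 cells. The units share libraries and depth, and the correlations are a description. Of 9782 genes, those most like Kit were the water channel Aqp1 (r = 0.77), Sh2d3c (0.77), Leng8 (0.76), Klk8 (0.75), Tnfsf10 (0.75), Hotairm1 (0.75), Rtf1 (0.75) and Tecpr1 (0.74). Correlations with Kitl were higher, with the caveolin Cav2 and the endothelial cadherin Cdh5 at 0.96, Ushbp1 at 0.95, Gpihbp1, the anchor of lipoprotein lipase on capillaries, and Myct1 at 0.94, and Cd36, a fatty acid receptor, Ctnna1 and Grrp1 at 0.93. Kit and Kitl correlated at 0.55. Both orders were loose. Of the 8 genes, 4 for Kit and 4 for Kitl stayed among the first 8 with a pseudocount of 10, and 3 and 4 by Spearman correlation.

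Other genes of the pathway were followed through lists fixed with earlier results of these data known, and are described by counts beside all genes. In the first of them, proteases that release Kitl from the cell, Adam10 had 109 CPM in endothelial-like and 32.9 CPM in fibroblast-like cells of the Lin28-/cKit- library (ratio 3.31, 2.95 to 3.71), and 2 of 3 measured members were called higher, against 24.3% of all genes. Compared with macrophage-like cells, 1 of 4 was called higher and 2 lower in both Lin28+ libraries, where 38.5% of all genes were higher and 19.5% lower in the Lin28+/cKit+ library and 34.7% and 20% in the Lin28+/cKit- library. Adam10 was at 102 against 44.5 CPM in the Lin28+/cKit+ library and 126 against 59.0 CPM in the Lin28+/cKit- library. Mmp9, a matrix protease that frees soluble Kitl in mouse bone marrow, was at 2.24 against 72.6 CPM and 2.53 against 98.8 CPM, the lower values being endothelial. Adam17, a known sheddase of Kitl, was called in no class comparison, at 58.9 CPM in endothelial-like cells against 40.3 CPM in fibroblast-like cells.

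Of 20 measured adaptors and kinases that bind activated cKit, 8 were called higher and 4 lower in endothelial-like than fibroblast-like cells, where 24.3% of all genes were higher and 21.4% lower. The median log2 ratio was 0.47 for the list and 0.07 for all genes. The Src family kinase Lyn stood at 96.9 CPM against 11.6 CPM (8.37 times), Yes1, of the same family, at 7.98 times and the phospholipase Plcg1 at 3.49 times, while Pik3r2, a regulatory subunit of phosphoinositide 3-kinase, was at 0.211 times. Against macrophage-like cells 8 of 20 were called higher and 7 lower in the Lin28+/cKit+ library and 8 and 8 in the Lin28+/cKit- library, beside 38.5% and 19.5% of all genes in the Lin28+/cKit+ library and 34.7% and 20% in the Lin28+/cKit- library. The list medians were -0.36 and -0.41, against 0.40 and 0.32 for all genes. In these comparisons, in library order, Yes1 was at 47.8 and 117 times and Plcg1 at 15.5 and 16.05 times. Lyn was on the other side, at 0.450 and 0.571 times, and so was Tec, at 0.163 and 0.103 times.

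At the ends of the pathway, the Ras, MAP kinase, Akt and STAT members, 5 of 14 were called higher and 1 lower against fibroblast-like cells, beside 24.3% and 21.4% of all genes, among them Mapk3 (ERK1) at 2.78 times and Akt2 at 0.321 times. Against macrophage-like cells 5 were higher and 3 lower in the Lin28+/cKit+ library (all genes 38.5% and 19.5%) and 3 and 3 in the Lin28+/cKit- library (34.7% and 20%), with Hras at 3.38 and 3.74 times. Of the inhibitors, 3 of 12 were higher and 4 lower against fibroblast-like cells, and the share called higher was near that of all genes (24.3%, with 21.4% lower). The lipid phosphatase Inpp5d (SHIP1) stood at 17.5 against 0.428 CPM (40.9 times), and the suppressor of cytokine signalling Socs3 at 230 against 861 CPM (0.267 times). Against macrophage-like cells 3 of 14 inhibitors were higher and 5 lower in the Lin28+/cKit+ library, and 5 and 6 in the Lin28+/cKit- library, beside the same all-gene shares as the pathway ends. The tyrosine phosphatase Ptpn6 (SHP-1), which shuts off cKit in blood cells, was at 1.87 against 127 CPM and at 4.06 against 114 CPM, lower in endothelial-like cells.

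Among transcription factors known to drive Kit in blood cells and mast cells or to act below it, 6 of 10 were called higher and 3 lower against fibroblast-like cells, beside 24.3% and 21.4% of all genes. The median log2 ratio was 2.60, against 0.07 for all genes. Gata2 had 99.3 CPM in endothelial-like and 1.46 CPM in fibroblast-like cells of the Lin28-/cKit- library (68.0 times, 49.2 to 96.1). The ETS factors Fli1 and Ets1 were at 14.4 and 6.99 times, and Mitf, the factor of melanocytes and mast cells, at 0.329 times. Against macrophage-like cells 5 of 10 were higher and 4 lower in both libraries, beside 38.5% and 19.5% of all genes in the Lin28+/cKit+ library and 34.7% and 20% in the Lin28+/cKit- library. There Gata2 was at 83.0 and 47.3 times, and Runx1 at 0.0290 and 0.00549 times. Gata2 did not share the capillary pattern of Kit, at 80.6 CPM in capillary and 123 CPM in arterial cells (0.654, 0.552 to 0.777).

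Of the sister receptors of cKit and their ligands, 4 of 9 were called higher and 4 lower against fibroblast-like cells, beside 24.3% and 21.4% of all genes. The ligand Pdgfb was at 164 against 1.85 CPM (88.7 times), and its receptor Pdgfrb and the related Pdgfra at 0.140 and 0.0973 times. Against macrophage-like cells 4 of 8 were higher and 2 lower in the Lin28+/cKit+ library (all genes 38.5% and 19.5%), and 4 and 3 in the Lin28+/cKit- library (34.7% and 20%). The ligand Csf1 had 40.4 against 1.33 CPM and 38.5 against 1.58 CPM in endothelial-like against macrophage-like cells, and its receptor Csf1r had 27.3 against 938 CPM and 18.8 against 1093 CPM. All 5 other endothelial receptor kinases (Kdr, Flt1, Flt4, Tek and Tie1) were called higher in each of the 3 class comparisons. Kdr, Flt1, Tek and Tie1 also served as endothelial markers for the class names, so this count is no separate evidence. Pdgfra likewise served as a fibroblast marker and Csf1r as a macrophage marker. Their lower values in endothelial-like cells, which enter the counts of sister receptors, are therefore no separate evidence either.

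Between capillary and arterial cells, 4 of 18 adaptors, 1 of 14 pathway ends, 4 of 11 inhibitors, 1 of 8 transcription factors, 4 of 8 sister receptors and ligands and 2 of 5 other endothelial receptor kinases were called in either direction, beside 6.46% of all genes called higher and 6.29% lower. Tec was at 2.75 against 32.04 CPM (0.0858 times), the furthest from 1. Csf1 was at 42.4 against 14.1 CPM (3.002 times) and Lyn at 141 against 91.8 CPM (1.54 times). Neither of the 2 measured shedding proteases was called.

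Between the sorted groups, Kit in endothelial-like cells gave a ratio of 0.737 for Lin28+/cKit+ over Lin28+/cKit- (0.486 to 1.12), 1.38 for Lin28+/cKit- over Lin28-/cKit- (0.946 to 2.01) and 1.02 for Lin28+/cKit+ over Lin28-/cKit- (0.697 to 1.48). All 3 intervals include 1, and Kit was not called in any pair. For these pairs, 3.45%, 4.02% and 2.41% of all genes were called higher and 3.46%, 6.95% and 6.45% lower. A Kit transcript level in the library sorted as positive for surface cKit that differed from either cKit- library was therefore not detectable in this class at 49 to 75 UMIs per library. The intervals reach up to 1.12 over the Lin28+/cKit- library and 1.48 over the Lin28-/cKit- library. Within capillary cells the same ratios were 0.768 (0.496 to 1.19), 0.919 (0.617 to 1.36) and 0.706 (0.468 to 1.05). Surface protein was not measured in these tables.

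Kitl in endothelial-like cells gave 0.918 (0.857 to 0.984), 1.10 (1.03 to 1.17) and 1.01 (0.953 to 1.07) for the same pairs, and was not called in any. With the subtypes as strata the ratios were 0.933, 1.00 and 0.919, and the last, Lin28+/cKit+ over Lin28-/cKit-, had an interval under 1 (0.866 to 0.976). The second pair changed sides when subtypes had equal weight (0.991) or cells were placed by their own markers (0.995). Over all alternatives the 3 ratios of Kitl in this class ranged from 0.914 to 1.13.

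Over all cells the ratios to the Lin28-/cKit- library were larger than within the class. Kit was at 7.02 CPM in the Lin28+/cKit+ library, 7.43 CPM in the Lin28+/cKit- library and 3.35 CPM in the Lin28-/cKit- library, and Kitl at 208, 235 and 103 CPM. Lin28+/cKit+ over Lin28-/cKit- was 2.10 for Kit (1.54 to 2.84) and 2.02 for Kitl (1.92 to 2.13), and Lin28+/cKit- over Lin28-/cKit- was 2.22 (1.58 to 3.09) and 2.28 (2.15 to 2.42). With the mean of each cell's own CPM the Kitl ratios to the Lin28-/cKit- library were lower, 1.49 for Lin28+/cKit+ and 1.56 for Lin28+/cKit-. Between the Lin28+ libraries the ratios were 0.944 (0.657 to 1.37) and 0.887 (0.832 to 0.945). The share of endothelial-like cells was 36.5% in the Lin28+/cKit+ library, 35.5% in the Lin28+/cKit- library and 23.2% in the Lin28-/cKit- library, where 69.4% of cells were fibroblast-like.

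**Figure D5:**
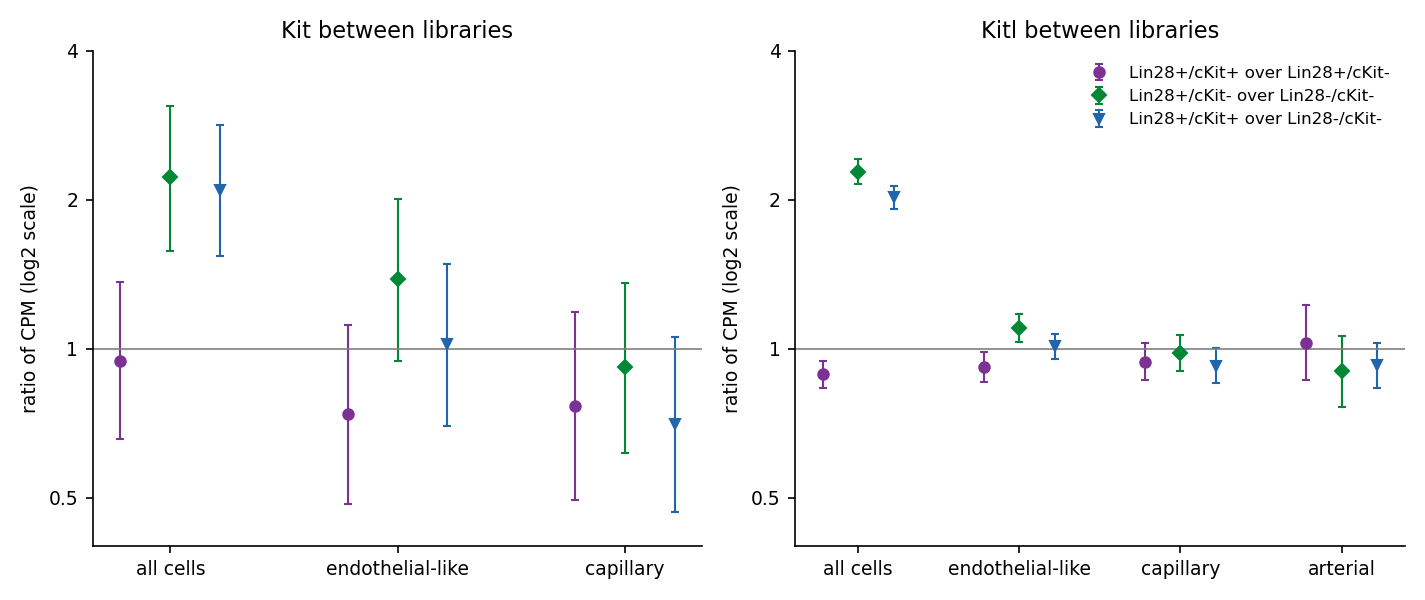
Ratios of CPM between libraries (log2 axis, 95% counting intervals) for Kit (left) and Kitl (right) over all cells, in endothelial-like cells and in capillary cells, and for Kitl also in arterial cells. Ratios to the Lin28-/cKit- library near 2 over all cells lie between 0.706 and 1.38 for Kit, and between 0.901 and 1.10 for Kitl, within the endothelial classes.

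The pathway lists were also compared between endothelial-like cells of the libraries. All-gene shares called higher and lower were 3.45% and 3.46% for Lin28+/cKit+ over Lin28+/cKit-, 4.02% and 6.95% for Lin28+/cKit- over Lin28-/cKit-, and 2.41% and 6.45% for Lin28+/cKit+ over Lin28-/cKit-. No pathway end (of 14) and no other endothelial receptor kinase (of 5) was called in any of the 3 pairs. Of the adaptors, 1 of 17 was called in the Lin28+/cKit+ over Lin28+/cKit- pair, 4 of 18 in Lin28+/cKit- over Lin28-/cKit- and 1 of 18 in Lin28+/cKit+ over Lin28-/cKit-. In the same pairs 2 of 12, 1 of 11 and 0 of 11 inhibitors, 2 of 8, 2 of 8 and 2 of 9 transcription factors, 1 of 3, 0 of 2 and 1 of 3 shedding proteases, and 0 of 7, 3 of 9 and 4 of 9 sister receptors and ligands were called. Lyn was at 152 CPM in the Lin28+/cKit- library against 96.9 CPM in the Lin28-/cKit- library (1.56, 1.34 to 1.82). Several other calls were of genes that mark other cell classes. Pdgfra had 4.11 CPM in endothelial-like cells of the Lin28+/cKit+ library and 9.13 CPM in those of the Lin28+/cKit- library, against 27.5 CPM in those of the Lin28-/cKit- library, where fibroblast-like cells abound. Csf1r had 27.3 and 18.8 CPM against 0 CPM in the same order, in libraries rich in macrophage-like cells and one with 14 of them. What lies behind these differences was not tested.

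Kit UMIs were also found in unnamed clusters, most of them in cluster 14. Cluster 11, with endothelial and fibroblast markers, had 7 in 6 of 141 cells (10.2 CPM, 4.09 to 20.9). Clusters 15, 17 and 21 had 2, 1 and 1. Cluster 19, led by cell division genes such as Top2a and Birc5 with 69.0% of its 29 cells placed as macrophage by their own markers, had 7 Kit UMIs in 3 of 17 cells of the Lin28+/cKit+ library (19.8 CPM, 7.96 to 40.8), which is 9.59% of the Kit UMIs of that library. Capillary cells of that library had 28.5 CPM (20.6 to 38.3), within the interval of cluster 19. Cluster 19 had 0 in its 8 cells of the Lin28+/cKit- library and 0 in its 4 cells of the Lin28-/cKit- library. Cluster 14 held 68 cells with markers of T cells, natural killer cells, neutrophils, dendritic cells and type 2 innate lymphoid cells (ILC2), and was left unnamed. It had 13 Kit UMIs in 4 of 7 cells of the Lin28+/cKit+ library (85.3 CPM, 45.4 to 146), 0 in its 1 cell of the Lin28+/cKit- library and 16 in 11 of 60 cells of the Lin28-/cKit- library (35.9 CPM, 20.5 to 58.3). Of the 15 cells with Kit, 12 had at least 3 UMIs of the dendritic list and held 25 of the 29 Kit UMIs, and 7 had a UMI of Flt3, a sister receptor of cKit. These 12 cells had 7572 to 27346 UMIs and the median over the cluster was 6957.5. Whether depth sets which cells reach 3 UMIs was not tested. The 15 cells also carried other markers. Blood progenitor UMIs were in 13 of them, beside 4724 of all 5833 cells, and Flt3 is on both that list and the dendritic one. The 11 cells of the Lin28-/cKit- library each had more fibroblast marker UMIs (4 to 38) than dendritic ones (0 to 12). Cells with at least 3 dendritic UMIs were 20 of the 68. Only 2 of the 15 had 3 or more ILC2 marker UMIs.

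The 7 cells of cluster 14 in the Lin28+/cKit+ library held 17.8% of the Kit UMIs of that library in 0.595% of its cells, with 7 UMIs in 1 cell, the most found in any cell. None of the 15 had a mast cell marker UMI, of the markers present in the tables (Cma1, Mcpt4 and Hdc). Over all libraries the mast cell proteases Cma1 and Mcpt4 gave 4 and 9 UMIs, and Hdc, an enzyme of histamine synthesis that other leukocytes also use, gave 164. Kitl was low in the cluster, with 10 UMIs in 5 of 68 cells (16.6 CPM).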

How the data were processed

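The values in the 3 deposited tables are on the natural log (ln) scale. As the values themselves show, the authors divided a gene's UMIs by the total of its cell, multiplied by 10000, added 1 and took the log. Per the submitters' processing notes, Cell Ranger (no version stated), Seurat 4.0.2 and the build mm10 were used. Filters applied by the authors are not given. Undoing the log gave cells that sum to 10000 and whole UMIs for 100% of values (within 0.01), so UMI counts were recovered and used in place of the counts the plan had assumed. Each library is 1 group. Libraries shared 1 (Lin28+/cKit+ and Lin28+/cKit-), 8 (Lin28+/cKit+ and Lin28-/cKit-) and 0 (Lin28+/cKit- and Lin28-/cKit-) cell barcodes.

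A minimum of 200 genes per cell and a limit of 20% mitochondrial UMIs removed 0 cells. They were clustered without Kit and Kitl in scanpy 1.11.5 (Leiden clustering with leidenalg 0.10.2 at resolution 1, on 15 nearest neighbours in 30 principal components of 2000 variable genes) and not integrated. The finer clusters are those at resolution 2. Classes were rebuilt from markers: a cluster was named where at least 60% of a list's markers reached 10 CPM and 25% of the top cluster's level, no other list reached 50%, and 70% of its cells carried mostly that list. Scrublet marked 26 of 5833 cells, too few to count as working, so no doublet was removed. Intervals are exact Poisson for levels, exact binomial for ratios (Mantel-Haenszel where libraries are strata) and Clopper-Pearson for shares (scipy 1.17.1). They cover counting error only.

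List members needed 20 UMIs. Genes that go with Kit needed 20 UMIs in the cells with a Kit UMI, and those named 50. The 8 highest and 4 lowest are named, and the 8 genes most correlated with Kit, with mitochondrial, ribosomal protein, haemoglobin, Gm and Rik genes passed over. The same was done for Kitl, and the leading genes of finer clusters are named, as choices made after their values were seen. The members, lists and markers were chosen with earlier results of these data known. The scripts were tested on simulated data. Alternatives changed the scaling, cell weights, filters, clustering and matching.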

Additional observations from a re-analysis of the deposited data

How the results depend on the processing

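No paired analysis was possible because each group has 1 library. Of 274 alternative values, 227 stayed within the counting interval (for a count of genes, within 1.5 times), 45 moved further and 2 turned a ratio round whose interval lay on 1 side of 1. Kit between endothelial-like libraries, with intervals that include 1, ranged from 0.714 to 0.914 (Lin28+/cKit+ over Lin28+/cKit-), 0.954 to 1.42 (Lin28+/cKit- over Lin28-/cKit-) and 0.872 to 1.07 (Lin28+/cKit+ over Lin28-/cKit-). Both reversals are of Kitl in endothelial-like cells, Lin28+/cKit- over Lin28-/cKit- (1.10), which was 0.995 with classes by each cell's own markers and 0.991 with equal subtype weights. Own markers also gave 15.8 for Kit and 36.9 for Kitl against fibroblast-like cells, 5.11 for Kit and 0.842 for Kitl in capillary over arterial cells, 2.49 and 7.21 in capillary over endocardial cells, 2.10 for Kitl in capillary over Lrg1 Col13a1 type cells, and 0.952 for Kitl in Lin28+/cKit+ over Lin28-/cKit- endothelial-like cells, which was 0.914 with equal subtype weights.

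Mean CPM per cell gave Kitl ratios of 62.5 against fibroblast-like cells, 0.954 (Lin28+/cKit+ over Lin28+/cKit-), 1.56 (Lin28+/cKit- over Lin28-/cKit-) and 1.49 (Lin28+/cKit+ over Lin28-/cKit-) over all cells, and 1.003 and 0.923 for the last 2 pairs in endothelial-like cells. Median-ratio scaling, added after the data were seen, shifted all genes by 0.20 (fibroblast-like), 0.48 and 0.42 (macrophage-like) on the log2 scale and gave Kitl ratios of 44.8, 15.7 and 14.8, and 0.948 and 2.16 for Lin28+/cKit+ over Lin28+/cKit- and over Lin28-/cKit- in all cells. Resolution 2 gave 16.5 for Kit against macrophage-like cells of the Lin28+/cKit+ library and 36.7 for Kitl against fibroblast-like cells. At resolution 0.5 all 800 capillary and 427 arterial cells formed 1 cluster, so no subtype ratio could be had. Without the richest cell the Kit ratio of capillary over endocardial cells was 17.7, and without the cells scored most like doublets the Kitl ratio to macrophage-like cells of the Lin28+/cKit+ library was 26.5. Thinning gave endothelial shares of 1.89%, 2.10% and 2.41% for Kit and 46.1%, 45.8% and 45.1% for Kitl.

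With cells matched on library only, 332 genes in place of 215 were past the fold below Kit. With a minimum of 5 UMIs, 453 were above and 659 below. With a pseudocount of 10, 4 of the 8 genes most like Kit and 4 of the 8 most like Kitl remained, and 3 and 4 did by Spearman correlation. The cause of these changes was not tested. Depth limits Kit, with 4 UMIs in arterial and 4 in macrophage-like cells behind those ratios.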
